A study of Mus musculus with 24 samples.

Results

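Chac1 and 8 further genes of the ATF4 stress response were followed in aorta, kidney, liver and gonadal fat of mice with 1 or 2 intact copies of Glo1. The genes are Chac1, Atf4, Ddit3, Trib3, Asns, Sesn2, Atf3, Ddit4 and Psat1, 9 of the 16593 genes named on the array. They were taken by symbol, and 13 of the 25697 probes carry one of these symbols. Each gene is described by the probe that was brightest over all 24 arrays. Chac1 was picked because its values rose in Glo1+/- adipose tissue, liver and aorta, so its genotype difference in those tissues is given as a description with no test. The other members were listed for their known roles.

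Both genotypes were C57BL/6J mice of 36 weeks, labelled female and fed standard chow. WT animals carried no knockout, and Glo1+/- animals were heterozygous for a knockout of Glo1 that is present in every cell and not limited to 1 tissue. Glo1 encodes glyoxalase 1, the enzyme that clears methylglyoxal with the help of glutathione. The Glo1+/- line was obtained from another laboratory and re-derived. Each of the 8 groups of tissue and genotype holds 3 samples, each read on 1 Illumina bead array, and the labels do not say whether samples with the same number in different tissues came from 1 mouse. Values are log2 probe values, so a difference of 1 is a doubling. The lowest value of the table is 7.96, the highest is 15.38, and the array medians lie between 8.22 and 8.25, just above that floor. Probes of different genes were not set against each other, because a probe's brightness depends on its sequence.

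The libraries carried signal that their labels do not name, and this bears on adipose tissue and aorta most. Glo1, the check of the genotype labels, was 13.91, 14.16 and 13.85 in WT liver and 13.22, 12.90 and 13.15 in Glo1+/- liver (adjusted p = 0.0031). It fell in kidney as well (-0.88 ± 0.15, adjusted p = 0.0223), and in adipose tissue the groups did not overlap (-0.90 ± 0.18, adjusted p = 0.239). In aorta the libraries labelled 3 lay on the wrong side, at 11.22 in the library labelled WT and 11.90 in the library labelled Glo1+/-, against 12.08 to 12.17 and 10.61 to 11.08 in the other two of each group. Brown fat markers averaged 12.45 to 12.79 in 5 aorta libraries, with Ucp1 at 14.57 to 14.82. In the library labelled Glo1+/- aorta 3 Ucp1 was 8.14, and its white fat markers averaged 12.89, the level of gonadal fat. The library labelled WT aorta 3 carried thymocyte transcripts, with Cd3d at 12.02. The library labelled WT aorta 2 carried skeletal muscle transcripts, whose 7 markers averaged 11.57. Smooth muscle markers, which define aorta, averaged 11.11 to 11.62 in the WT and 10.14 to 11.07 in the Glo1+/- aorta libraries. In adipose tissue both libraries numbered 1 carried the most kidney tubule transcripts (Slc34a1 at 13.29 and 14.36). Slc34a1 was at 9.75 in WT adipose 2 and 9.84 in Glo1+/- adipose 3. It was at 8.08 in WT adipose 3 and 8.22 in Glo1+/- adipose 2. The library labelled Glo1+/- adipose 3 also carried epididymal transcripts (Lcn8 at 14.83). Epididymis is a male organ, Xist was at 8.10 to 8.25 in all 24 libraries and the Y-linked Eif2s3y at 10.33 to 11.28, which goes against the label female. Hepatocyte markers averaged 9.67 to 11.61 in WT and 8.61 to 10.17 in Glo1+/- adipose tissue. Alb was at 8.10 to 8.21 there, but its probe read only 8.96 to 9.86 in liver, where hepatocyte markers averaged 13.01 to 13.20. The Alb value therefore says little about hepatocyte transcripts in adipose tissue. Liver and kidney libraries correlated within their tissue at 0.986 or more across probes.

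ATF4 is the effector of the integrated stress response. When amino acids run short, unfolded protein builds up in the endoplasmic reticulum or haem is lacking, a kinase phosphorylates the translation factor eIF2, protein synthesis slows, and the Atf4 messenger is then translated more, so that ATF4 can rise without a change of its messenger. ATF4 and its partners of the C/EBP family bind composite promoter sites and raise genes of amino acid synthesis and transport, of feedback and, under lasting stress, of cell death. CHAC1 is the product of one of its target genes. It cleaves glutathione, the cofactor of glyoxalase 1, into 5-oxoproline and cysteinylglycine.

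The promoters of the members were read from RefSeq (GRCm38.p6) and searched on both strands for the core of the composite site, TGATGNAA. The search covered 300 bases, from 250 before to 50 after the annotated start. All 9 members matched a RefSeq entry, Psat1 with 2 starts. Chac1, Trib3, Asns and Atf3, 4 of the 9 genes, hold the core, against 3.97% of 32851 promoters of that length. These 4 sites are shown with their flanks because they are the only matches among the members. Capitals mark the core, each line reads 5′ to 3′ along the strand of its gene, and all but Asns carry it on the opposite strand.
Chac1, chr2:119351039-119351066, plus strand: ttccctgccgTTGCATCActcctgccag
Trib3, chr2:152344029-152344056, minus strand: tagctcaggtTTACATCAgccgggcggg
Asns, chr6:7693215-7693242, minus strand: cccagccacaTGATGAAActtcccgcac
Atf3, chr1:191183426-191183453, minus strand: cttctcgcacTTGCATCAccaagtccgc
The core starts 193 bases before the start of Chac1, 23 bases before that of Asns and 110 bases before that of Atf3, and in Trib3 it begins at base 15 of the transcript. The cyclic AMP response element TGACGTCA was in none of the members' windows and in 1.79% of all, and the endoplasmic reticulum stress element was in none and in 0.119% of all. A match here is a match of letters and no measurement of binding.

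The 250 bases before the start are given for Chac1, Asns and Ddit4, the 3 genes with the largest genotype differences in adipose tissue, with any core in capitals.
Chac1, chr2:119350992-119351241, plus strand: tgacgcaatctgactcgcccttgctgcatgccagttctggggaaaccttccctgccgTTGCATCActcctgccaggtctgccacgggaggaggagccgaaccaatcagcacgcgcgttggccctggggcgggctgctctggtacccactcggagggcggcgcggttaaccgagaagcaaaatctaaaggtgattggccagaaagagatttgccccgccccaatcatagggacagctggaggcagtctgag
Asns, chr6:7693210-7693459, minus strand: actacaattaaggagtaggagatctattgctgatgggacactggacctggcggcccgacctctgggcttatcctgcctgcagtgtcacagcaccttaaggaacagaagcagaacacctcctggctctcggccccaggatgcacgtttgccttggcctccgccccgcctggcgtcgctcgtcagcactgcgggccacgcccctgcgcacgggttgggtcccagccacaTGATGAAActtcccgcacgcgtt
Ddit4, chr10:59951771-59952020, minus strand: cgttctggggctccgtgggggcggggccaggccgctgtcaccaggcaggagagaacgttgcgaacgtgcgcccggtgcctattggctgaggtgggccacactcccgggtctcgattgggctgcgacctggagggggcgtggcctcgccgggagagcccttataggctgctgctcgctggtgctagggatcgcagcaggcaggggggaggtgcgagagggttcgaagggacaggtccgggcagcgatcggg
Chac1 carries its core in the distal and Asns in the proximal end of this stretch. Ddit4 holds no match to the core in these letters.

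Chac1 was higher in Glo1+/- adipose tissue, aorta and, with overlap, liver, and it was not higher in kidney. In adipose tissue the WT values were 9.79, 9.69 and 10.26 and the Glo1+/- values 11.27, 11.32 and 11.82. Every Glo1+/- library lay above every WT library, and the lowest of the former stood 1.01 above the highest of the latter. The group means were 9.91 ± 0.30 and 11.47 ± 0.31 (SD, n = 3 each), a difference of 1.56 ± 0.20 (SE) or 2.95-fold. The difference was 1.38 without the library that carries epididymal transcripts and 1.60 without both libraries numbered 1, which carry the most kidney transcripts. The hepatocyte markers ran lower in Glo1+/- adipose libraries, with overlap, and their part in the Chac1 difference was not tested. In these tissue samples fewer cells of a type and less RNA per cell cannot be told apart.

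In aorta Chac1 was 9.01, 8.82 and 9.13 in WT and 9.61, 9.70 and 10.21 in Glo1+/-. The groups did not overlap, and the highest value was that of the library labelled Glo1+/- aorta 3, which carries white fat. The difference was 0.85 ± 0.19 or 1.80-fold, and it was 0.74 without both libraries numbered 3. Smooth muscle markers were lower in the Glo1+/- aorta libraries and the 4 macrophage markers measured averaged 10.27 to 10.37 in WT and 10.45 to 11.85 in Glo1+/-. Their part in the difference was not tested.

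In liver Chac1 was 9.95, 9.26 and 9.85 in WT and 10.28, 10.68 and 9.87 in Glo1+/-. The lowest Glo1+/- library lay below the highest WT library, so the groups overlapped. The difference was 0.59 ± 0.19 or 1.50-fold. WT liver 1 and 2 were on slide 1 and the other 4 liver arrays on slide 2. On slide 2 alone, 1 WT array against 3, the difference was 0.42. Endothelial markers averaged 9.05 to 9.15 in WT and 8.82 to 8.83 in Glo1+/- liver, and smooth muscle markers 8.94 to 9.11 and 8.70 to 8.79. Their part in the difference was not tested.

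Kidney was not among the tissues whose rise Chac1 was picked for. The pick was made with earlier results known and may have passed over kidney for want of a rise, so kidney is no independent check. In kidney Chac1 was 8.60, 8.54 and 8.55 in WT and 8.43, 8.51 and 8.39 in Glo1+/-. The WT kidney arrays and Glo1+/- kidney 1 were on slide 2, and Glo1+/- kidney 2 and 3 on slide 3. All Glo1+/- values lay below all WT values, by a margin of 0.03, and the difference of -0.12 ± 0.06 did not pass (limma, adjusted p = 0.567, 95% interval -0.26 to 0.01). Chac1 was dimmer in kidney than in the other tissues in both genotypes, but above the array median in all 24 arrays. Its kidney values lay close to the array medians of 8.22 to 8.25, just above the floor. A kidney difference may therefore be understated. Averaged over the 4 tissues the Glo1+/- libraries stood 0.72 ± 0.11 above WT, a mean that falls to 0.44 without adipose tissue and reaches 1.00 without kidney.

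**Figure D1:**
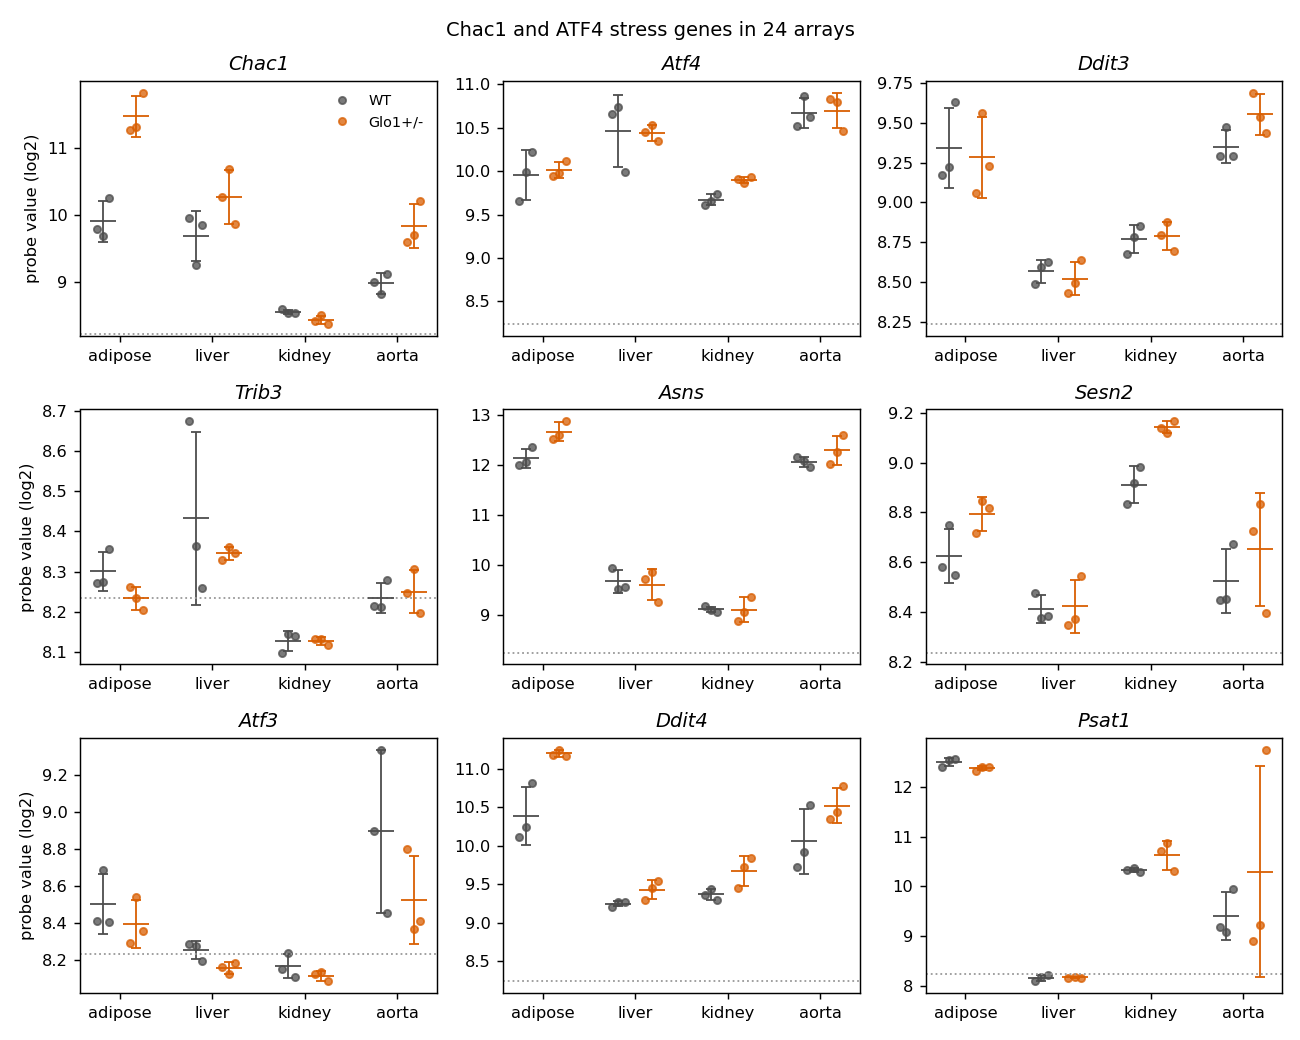
Log2 probe value (vertical axis, a separate scale for each gene) of the 9 members in each of 24 arrays, WT in grey and Glo1+/- in orange, by tissue; bars show the mean ± SD of 3 arrays and the dotted line the median of the array medians, 8.24. Chac1 in Glo1+/- adipose tissue sits between 11.27 and 11.82, above all WT values, and Psat1 in the library labelled Glo1+/- aorta 3 stands at 12.75.

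Of the members other than Chac1, none passed the genotype test in any tissue. The test was limma on the 6 arrays of a tissue, with Benjamini-Hochberg adjustment over all 25697 probes and a threshold of 0.05, and the shares below are of all those probes. In adipose tissue 0 of 8 passed, where 0.00389% of probes did. That fit took no pairs, and a fit with the sample number as a block called none of these 8 either. In liver 0 of 8 passed, against 0.658% (0.315% higher and 0.342% lower). In kidney 0 of 9 passed, against 0.381%, and in aorta 0 of 8, against 0%. The kidney count includes Chac1, whose lack of a rise there may be part of its pick. At an unadjusted p under 0.05 the counts were 2, 0, 4 and 0 in adipose tissue, liver, kidney and aorta, and 11.4%, 11.6%, 9.54% and 3.57% of all probes reached it. The median difference was 0.00 over the 8 tested members in adipose tissue, -0.03 over the 8 in liver, 0.02 over the 9 in kidney and 0.16 over the 8 in aorta, beside medians of all probes within 0.01 of 0. With 3 arrays a group, a p that misses the threshold does not show equal levels.

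Groups without overlap were counted as a second description. In adipose tissue Asns and Ddit4 were higher in all Glo1+/- libraries, beside 8.02% of all probes, and Trib3 and Psat1 were lower, beside 9.48%. In liver Ddit4 was higher without overlap, beside 7.77%, and Atf3 was lower, beside 9.79%. In kidney Atf4, Sesn2 and Ddit4 were higher, beside 7.47%, and Chac1 was lower, beside 7.96%. In aorta no member other than Chac1 separated the genotypes, beside 5.61% of probes that were higher and 4.5% that were lower, 10.1% in all. Ddit4 was the only one of these 8 that was higher without overlap in more than 1 tissue. In liver and kidney the genotypes were spread unevenly over the slides, so slide may have a part in these separations, which was not tested.

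**Figure D2:**
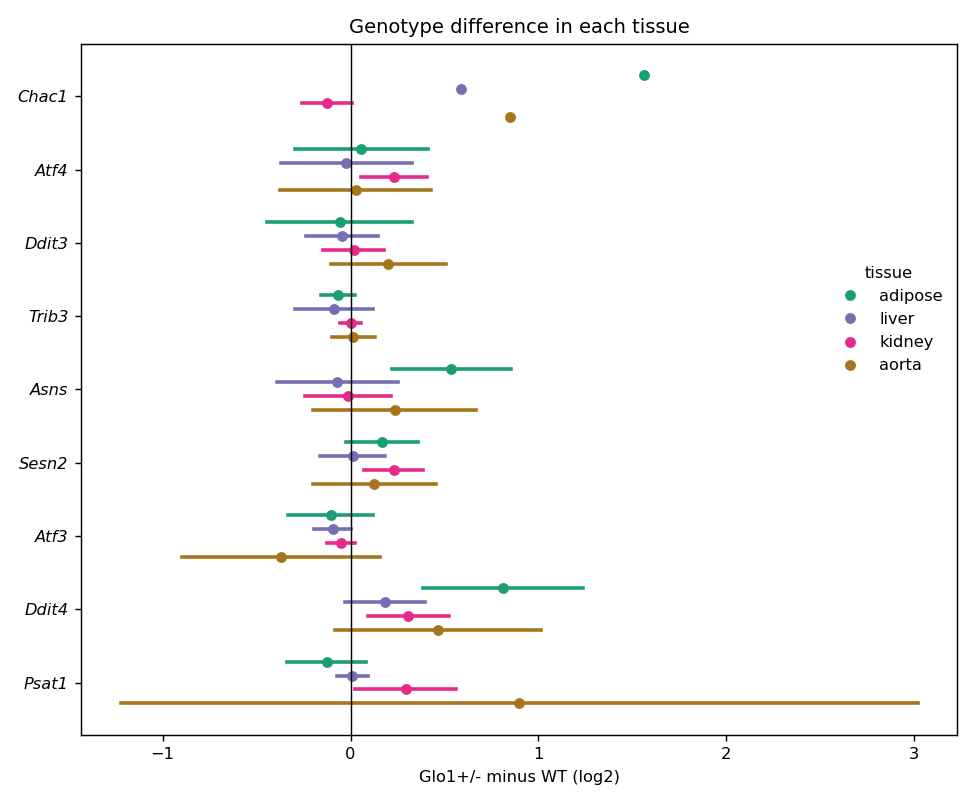
Genotype difference (horizontal axis, Glo1+/- minus WT in log2) of the 9 members in 4 tissues; points are differences of means of 3 arrays and bars 95% intervals from limma, left out for Chac1 in the 3 tissues it was chosen on. Chac1 and Ddit4 in adipose tissue lie at 1.56 and 0.81, and the interval of Psat1 in aorta runs from -1.22 to 3.02.

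Atf4, the transcription factor itself, did not separate the genotypes in the tissues where Chac1 was higher. Its adipose values were 9.65, 9.99 and 10.22 in WT and 9.94, 9.98 and 10.12 in Glo1+/-, a difference of 0.06 ± 0.15 (adjusted p = 0.913, 95% interval -0.29 to 0.41). The Glo1+/- values lay inside the WT range. In liver it was 10.65, 10.74 and 9.99 against 10.45, 10.53 and 10.34 (-0.02 ± 0.16, adjusted p = 0.976), and the low WT value is that of the only WT array on slide 2. With slide as a block the liver difference became 0.45 (adjusted p = 0.0357), a value that rests on that 1 WT library, whose spread is assumed to be like that of the others. In aorta it was 10.52, 10.86 and 10.63 against 10.84, 10.80 and 10.46, with overlap (0.03 ± 0.17, adjusted p = 0.991). Kidney was the only tissue where the genotypes separated, at 9.61, 9.66 and 9.74 in WT and 9.91, 9.87 and 9.93 in Glo1+/-. That difference of 0.23 ± 0.08 did not pass (adjusted p = 0.360), and it is the tissue in which Chac1 was not higher. The arrays measure the messenger and not the ATF4 protein.

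Ddit3 encodes CHOP, a C/EBP family factor that promotes cell death under lasting stress. In adipose tissue it was 9.17, 9.22 and 9.63 in WT and 9.06, 9.56 and 9.23 in Glo1+/- (-0.06 ± 0.17, adjusted p = 0.921), with full overlap. Differences in liver (-0.05 ± 0.09) and kidney (0.02 ± 0.08) were smaller than their errors. In aorta it was 9.29, 9.47 and 9.29 against 9.69, 9.53 and 9.43, with the lowest Glo1+/- value just inside the WT range (0.20 ± 0.13, adjusted p = 0.948). A second, dimmer probe gave -0.03 in aorta and -0.06 in kidney, so the sign in both depends on the probe.

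Atf3, a stress-induced factor of the same family as ATF4, had a lower Glo1+/- mean in all 4 tissues, and none passed. In aorta it was 8.90, 9.34 and 8.45 in WT and 8.80, 8.37 and 8.41 in Glo1+/-, a wide spread with overlap (-0.37 ± 0.23, adjusted p = 0.948). In liver it was 8.29, 8.28 and 8.20 against 8.17, 8.12 and 8.19, a gap of 0.01 between the groups (-0.10 ± 0.05, adjusted p = 0.441). Its difference was -0.11 ± 0.10 in adipose tissue and -0.05 ± 0.03 in kidney. Atf3 was above the array median in only 2 of 6 liver and 1 of 6 kidney arrays, so those differences lie at the floor.

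Trib3, a pseudokinase that ATF4 induces and that holds ATF4 back, stayed near the floor everywhere. Its values ran from 8.10 to 8.67 over the 24 arrays, and 13 of 24 were above the array median, none of them in kidney. In adipose tissue it was 8.27, 8.27 and 8.36 in WT and 8.26, 8.23 and 8.20 in Glo1+/- (-0.07 ± 0.04, adjusted p = 0.555), where Chac1 was higher by 1.56. Differences in the other tissues were -0.09 ± 0.10 in liver, 0.00 ± 0.03 in kidney and 0.02 ± 0.05 in aorta.

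Asns makes asparagine and carries the proximal match printed above. In adipose tissue its values were 11.998, 12.05 and 12.36 in WT and 12.52, 12.61 and 12.88 in Glo1+/-. All Glo1+/- libraries lay above all WT libraries, as for Chac1. The difference was 0.54 ± 0.14 or 1.45-fold (adjusted p = 0.289, unadjusted p = 0.0046, 95% interval 0.22 to 0.85). With the replicate number as a block the adjusted p was 0.119, and whether the numbers mark pairs is not known. A second probe read 10.38, 10.20 and 10.79 against 10.77, 10.82 and 11.14, with a slight overlap (0.46 ± 0.18, adjusted p = 0.408). In aorta Asns was 12.16, 12.07 and 11.95 against 12.02, 12.26 and 12.60, with overlap (0.23 ± 0.19, adjusted p = 0.948). It did not differ beyond its error in liver (-0.07 ± 0.15, 95% interval -0.39 to 0.25) or kidney (-0.01 ± 0.11, 95% interval -0.24 to 0.22).

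Psat1 acts in serine synthesis. In adipose tissue, where Asns was higher, it was 12.40, 12.53 and 12.56 in WT and 12.32, 12.40 and 12.40 in Glo1+/- (-0.13 ± 0.09, adjusted p = 0.631). In kidney it was 10.33, 10.37 and 10.29 against 10.70, 10.87 and 10.30, where 2 Glo1+/- libraries lay above and 1 inside the WT range (0.29 ± 0.12, adjusted p = 0.480). In liver all 6 values, 8.09 to 8.20, were at the floor. In aorta it was 9.18, 9.07 and 9.95 against 8.91, 9.23 and 12.75, and the last value belongs to the library labelled Glo1+/- aorta 3, which carries white fat. The mean difference of 0.90 ± 0.91 became -0.06 without both libraries numbered 3. Psat1 in gonadal fat lay between 12.32 and 12.56, close to that single aorta value.

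Ddit4 and Sesn2 both restrain the growth kinase complex mTORC1, Ddit4 through the TSC complex and Sesn2 as a sensor of leucine. Ddit4 was higher in the Glo1+/- mean of all 4 tissues. In adipose tissue it was 10.11, 10.24 and 10.82 in WT and 11.19, 11.25 and 11.17 in Glo1+/-, with the lowest Glo1+/- library 0.35 above the highest WT library. The difference was 0.81 ± 0.18 or 1.75-fold (adjusted p = 0.260, unadjusted p = 0.0023, 95% interval 0.39 to 1.24). Of 6 fits that leave out 1 adipose array, only that without WT adipose 3 gave a call (1.03, adjusted p = 0.0265). The lowest adjusted p of the others was 0.245. WT adipose 3 holds the highest WT value, so leaving it out is no test. With the spread of all 24 arrays Ddit4 had an adjusted p of 0.0435 in adipose tissue. In kidney it was 9.36, 9.44 and 9.30 against 9.46, 9.72 and 9.84 (0.31 ± 0.10, adjusted p = 0.309), and in liver 9.21, 9.27 and 9.27 against 9.29, 9.45 and 9.55 (0.18 ± 0.10, adjusted p = 0.513). Both separated the genotypes by 0.02. The WT kidney arrays and Glo1+/- kidney 1, at 9.46, were on slide 2. Glo1+/- kidney 2 and 3, at 9.72 and 9.84, were on slide 3, and the part of slide in the kidney difference cannot be told apart. In aorta Ddit4 was 9.72, 9.92 and 10.53 against 10.34, 10.44 and 10.78 (0.46 ± 0.24, adjusted p = 0.948), where the high WT value is that of the library labelled WT aorta 3. Without both libraries numbered 3, and so with fewer arrays in each genotype, the aorta difference was 0.57 (adjusted p = 0.0371).

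Averaged over the 4 tissues in 1 fit of all 24 arrays, Ddit4 was the only one of 8 tested members that passed, at 0.44 ± 0.09 (adjusted p = 0.0380), beside 0.269% of all probes. The fit takes the 24 arrays as independent. The labels do not say whether 1 mouse gave several tissues, and no fit allowed for that. The call was fragile. It was kept in 8 of the 24 fits that leave out 1 array, namely those without WT adipose 3, Glo1+/- adipose 2, WT liver 3, Glo1+/- kidney 1 or any one of WT aorta 3 and Glo1+/- aorta 1, 2 and 3. It was lost in the other 16, with adjusted p from 0.0508 to 0.0966. It was lost as well with slide as a block (0.38, adjusted p = 0.172) and without adipose tissue (0.32, adjusted p = 0.241), liver (0.53, adjusted p = 0.220) or kidney (0.49, adjusted p = 0.184). The difference itself kept its sign in all of these. A test of whether the genotype difference varied between tissues passed for 0 of the 8 members, beside 0.28% of probes, with adjusted p = 0.565 for Ddit4 and 0.521 for Asns. At an unadjusted p under 0.05 no member reached that test either, since Asns had the lowest at 0.0809.

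Sesn2 was 8.83, 8.92 and 8.98 in WT kidney and 9.14, 9.12 and 9.17 in Glo1+/- kidney. These groups did not overlap, and the difference of 0.23 ± 0.07 did not pass (adjusted p = 0.290). In adipose tissue it was 8.58, 8.75 and 8.55 against 8.72, 8.85 and 8.82, with a small overlap (0.17 ± 0.08, adjusted p = 0.483). In aorta it was 8.45, 8.45 and 8.67 against 8.73, 8.83 and 8.39 (0.13 ± 0.14), and in liver the difference was 0.01 ± 0.08. Over the 4 tissues the mean difference was 0.13 ± 0.05 (adjusted p = 0.333). Of 24 fits that leave out 1 array, 1 gave a call, that without Glo1+/- aorta 3 by its label (0.17, adjusted p = 0.0411). That library holds the lowest Sesn2 value of its group, 8.39. The lowest adjusted p of the other fits was 0.199. Without both aorta libraries numbered 3 and Glo1+/- adipose 3 the mean difference was 0.18 (adjusted p = 0.0182).

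The members' levels passed the test between tissues far more often than between genotypes. Levels were compared among the 12 WT arrays and, separately, among the 12 Glo1+/- arrays, with limma and each of 6 pairwise contrasts adjusted over all probes. Chac1 was left out of the counts, because its levels rest on the values it was picked on. Of 48 combinations of another member and a contrast, 28 passed in WT and 30 in Glo1+/-. The shares of all probes that passed in WT were 33.4% for adipose tissue against liver, 30.7% for adipose tissue against kidney and 21.9% for adipose tissue against aorta. They were 27.7% for liver against kidney, 32.5% for liver against aorta and 29.1% for kidney against aorta. In Glo1+/- the shares in the same order were 29.6%, 25%, 5.98%, 22.3%, 27% and 23.2%. In WT only adipose tissue and liver, and liver and kidney, share a slide, and in Glo1+/- only liver and kidney, and kidney and aorta. The other 4 pairs of each genotype share no slide, so slide and tissue cannot be told apart from the arrays of such a pair alone. In the pairs that share one, 9 of 16 combinations without Chac1 passed in WT and 8 of 16 with slide as a block on the arrays of the pair, and in Glo1+/- 11 of 16 and 8 of 16.

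Chac1 levels by tissue are a description with no test. In WT the adipose mean was 9.91 and the liver mean 9.69, and the adipose range of 9.69 to 10.26 overlapped the liver range of 9.26 to 9.95. The WT aorta values, 8.82 to 9.13, lay below those of liver, and the WT kidney values, 8.54 to 8.60, below those of aorta. In Glo1+/- the adipose range of 11.27 to 11.82 lay above the liver range of 9.87 to 10.68, which overlapped the aorta range of 9.61 to 10.21, and kidney lay below all of these at 8.39 to 8.51. The order of the tissue means was the same in both genotypes.

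Asns and Psat1 had the steepest tissue patterns. Asns in WT was 12.14 ± 0.19 in adipose tissue and 12.06 ± 0.10 in aorta (adjusted p = 0.793), then fell to 9.67 ± 0.23 in liver (adjusted p = 3.28e-09 against aorta) and 9.11 ± 0.05 in kidney (adjusted p = 0.0038 against liver). Psat1 in WT passed in all 6 contrasts, from 12.50 ± 0.09 in adipose tissue to 10.33 ± 0.04 in kidney (adjusted p = 1.81e-07), 9.40 ± 0.48 in aorta (adjusted p = 7.06e-04 against kidney) and 8.16 ± 0.06 in liver (adjusted p = 4.81e-05 against aorta). In Glo1+/-, where the library labelled aorta 3 was at 12.75, 3 of 6 Psat1 contrasts passed. The aorta levels are those of libraries that carry brown or white fat. How much of the aorta's Asns and Psat1 came from fat was not tested.

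Ddit4 in WT was 10.39 in adipose tissue and 10.06 in aorta (adjusted p = 0.293), above 9.37 in kidney (adjusted p = 0.0146 against aorta), which was not distinguished from 9.25 in liver (adjusted p = 0.743). Ddit3 in WT was 9.35 in aorta and 9.34 in adipose tissue (adjusted p = 0.981), above 8.77 in kidney (adjusted p = 0.0013 against adipose tissue) and 8.57 in liver. Atf4 in WT ran from 10.67 in aorta through 10.46 in liver and 9.95 in adipose tissue to 9.67 in kidney, with no neighbouring pair past the threshold and aorta above kidney (adjusted p = 7.09e-04). Chac1 and Atf4 thus had different tissue orders: adipose tissue was first for Chac1 and the third for Atf4.

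Sesn2 had its highest WT mean in kidney, at 8.91, above 8.63 in adipose tissue (adjusted p = 0.0178), and the lowest in liver, at 8.41. Atf3 in WT was highest in aorta, at 8.90 ± 0.44, not distinguished from 8.50 in adipose tissue (adjusted p = 0.102) and above liver and kidney. Trib3 in WT passed in 1 of 6 contrasts, liver at 8.43 over kidney at 8.13 (adjusted p = 0.0082), and the liver mean holds 1 library at 8.67. With slide as a block that difference was 0.13 (adjusted p = 0.410).

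Chac1 was then set beside every other gene over the 24 arrays. To take out tissue, each tissue's mean was subtracted, which leaves genotype and differences within groups in the values. Among 2653 genes whose remaining SD was at least 0.2, the highest Pearson correlations with Chac1 were those of Mycl (0.86), Slc27a1 (0.85), Ripk4 (0.85), St6galnac2 (0.81) and Sema6b (0.80). Asns was the 9th of these genes (0.77) and Ddit4 the 16th (0.75). Sesn2 (0.22), Psat1 (0.28), Atf4 (0.01), Ddit3 (0.02) and Trib3 (-0.16) were far from Chac1, and Atf3 ran the other way (-0.48). These arrays share genotype, and Chac1 was picked on that difference. The correlations are therefore a description.

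With each of the 8 group means subtracted, so that genotype is taken out as well, the genes most like Chac1 among 1828 were Shisa2 (0.70), Sf3a3 (0.67), Adgrg2 (0.67), Nnmt (0.66) and Slc38a5 (0.66). Asns, with a remaining SD under 0.2, had 0.75. This did not hold in each group: in WT aorta the library with the most Chac1 (9.13) had the least Asns (11.95), and in Glo1+/- kidney the library with the least Chac1 (8.39) had the most Asns (9.36). Ddit4 had 0.36 by that measure. Without both aorta libraries numbered 3 and Glo1+/- adipose 3, over 21 arrays, Asns had 0.71 and Ddit4 0.25. The genes most like Chac1 with tissue means subtracted were then Ripk4 (0.88), Rgs3 (0.86), Irx3 (0.83), Slc27a1 (0.83) and Mycl (0.79).

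**Figure D3:**
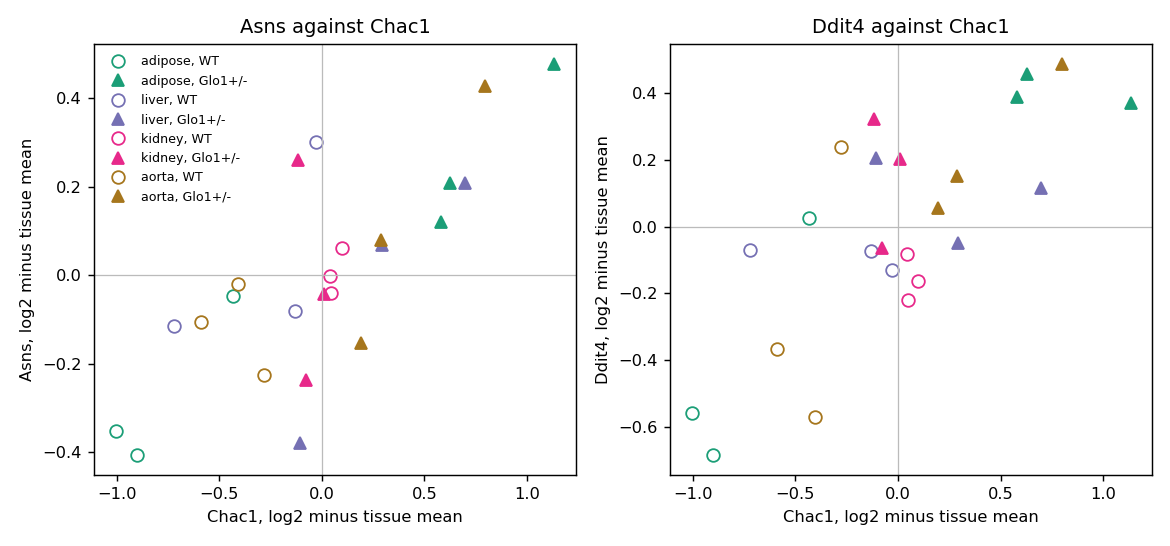
Asns (left) and Ddit4 (right) against Chac1 in 24 arrays, each as the log2 value minus the mean of its tissue; open circles are WT and filled triangles Glo1+/-, coloured by tissue. The 3 Glo1+/- adipose arrays lie at the upper right in both panels, and the correlations over all points are 0.77 and 0.75.

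The wider pathway was read from 8 lists of genes around the members. Counts are of genes on the array with a genotype difference past the threshold. The 16 regulators of the integrated stress response, which hold the eIF2 kinases, the exchange factor eIF2B and the phosphatase subunits, had 0 called in any tissue. Their medians were 0.08 in adipose tissue, 0.00 in liver, 0.05 in kidney and 0.00 in aorta. Eif2b5, the catalytic subunit of eIF2B, had a higher Glo1+/- mean in each tissue, by 0.60 ± 0.23 in adipose tissue, 0.48 ± 0.14 in liver, 0.45 ± 0.18 in kidney and 0.57 ± 0.26 in aorta (lowest adjusted p = 0.172, in liver). In adipose tissue it was 10.82, 10.66 and 11.59 in WT and 11.60, 11.70 and 11.58 in Glo1+/-, and in liver 10.61, 10.60 and 11.14 against 11.22, 11.17 and 11.40. In kidney it was 10.51, 10.66 and 11.38 against 11.45, 11.28 and 11.16, and in aorta 10.61, 10.55 and 11.48 against 11.46, 11.48 and 11.42. In every tissue the WT library numbered 3 stood far above the other two and within or just beside the Glo1+/- range. Without it the difference was 0.88 in adipose tissue, 0.66 in liver, 0.71 in kidney and 0.87 in aorta. That library was singled out by these same values, so leaving it out is no test. Of 6 fits that leave out 1 array, only that 1 gave a call in adipose tissue, liver and kidney. The others had limma adjusted p of 0.46, 0.32 and 0.59 or more in these tissues, and in aorta 0 of 6 gave a call. In liver the kinase PERK, Eif2ak3, was at -0.38 ± 0.13 (adjusted p = 0.242), and at -0.67 (adjusted p = 0.0058) with slide as a block, which rests on 1 WT array.

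Among 11 paralogs and partners of the members, Cebpb, a C/EBP factor that pairs with ATF4, was higher in kidney. Its values were 10.63, 10.62 and 10.88 in WT and 11.26, 11.28 and 11.14 in Glo1+/- (0.51 ± 0.10, adjusted p = 0.0456). No other gene of the list was called in any tissue. The Cebpb call was lost with slide as a block (0.55, adjusted p = 0.295), with the replicate block (adjusted p = 0.0784), with only probes above the tissue median (adjusted p = 0.0509), with the prior variance held constant (adjusted p = 0.0914), with the spread of all 24 arrays, and in 5 of 6 fits that leave out 1 array, all but that without WT kidney 3. Ddit4l, the paralog of Ddit4, was at 1.17 ± 0.60 in adipose tissue with overlap (adjusted p = 0.503).

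Of 12 genes of serine and amino acid synthesis, 11 transporters and 17 aminoacyl-tRNA synthetases, 0 were called in any tissue. In adipose tissue the medians were -0.07, 0.07 and 0.01. Slc6a9, a glycine transporter, was 9.12, 9.05 and 9.08 in WT and 9.63, 9.52 and 9.73 in Glo1+/- adipose tissue (0.54 ± 0.09, adjusted p = 0.170), with no overlap. With the replicate number as a block its adjusted p was 0.127, and 0 of 112 pathway genes were called in adipose tissue by that fit as by the unpaired one. Phgdh, the first enzyme of serine synthesis, was at -0.46 ± 0.21 there (adjusted p = 0.446). In kidney 13 of the 17 synthetases had a higher Glo1+/- mean and 6 did so without overlap, with a median of 0.06, beside 50.05% and 7.47% of all probes in kidney.

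Of 18 further genes that ATF4 is known to drive, Fgf21 in liver was the only one called. FGF21 is a stress and fasting hormone of liver. Its values were 8.40, 8.37 and 8.35 in WT and 9.15, 8.89 and 8.83 in Glo1+/- (0.58 ± 0.10, adjusted p = 0.0191), all close to the floor. On slide 2 alone, with 1 WT array, the difference was 0.61. The call was lost with the prior variance held constant (adjusted p = 0.0759) and without WT liver 2 (0.58, adjusted p = 0.0562), Glo1+/- liver 1 (0.49, adjusted p = 0.122), 2 (0.62, adjusted p = 0.0865) or 3 (0.64, adjusted p = 0.0559). The endothelial and smooth muscle markers that ran lower in Glo1+/- liver stand beside this difference too, and their part in it was not tested. In adipose tissue Gadd45a, a growth arrest gene, was at -0.69 ± 0.12 (adjusted p = 0.193) and the apoptosis gene Bbc3 at -0.52 ± 0.11 (adjusted p = 0.250), both lower without overlap. Txnip was higher without overlap (0.42 ± 0.09, adjusted p = 0.260). With the replicate block the adjusted p of Gadd45a, Bbc3 and Txnip were 0.150, 0.155 and 0.134. In adipose tissue 11 of the 18 had a higher Glo1+/- mean, beside 49.84% of all probes, with a median of 0.05. Without overlap 4 were higher, beside 8.02% of all probes, and 3 lower, beside 9.48%.

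Glutathione turnover, the pathway of CHAC1 itself, had 0 of 13 genes called in any tissue. Oplah, which opens the 5-oxoproline that CHAC1 releases, was 10.66, 10.48 and 10.69 in WT kidney and 11.28, 10.93 and 11.34 in Glo1+/- kidney. The groups did not overlap, and the difference of 0.58 ± 0.11 missed the threshold (adjusted p = 0.0521). It passed with quantile normalization (adjusted p = 0.0455) and with the replicate block (adjusted p = 0.0281). Of 6 fits that leave out 1 kidney array, only that without Glo1+/- kidney 2 gave a call (0.70, adjusted p = 0.0261). The others had adjusted p from 0.0626 to 0.293. Glo1+/- kidney 1 is the only Glo1+/- kidney array on the slide of the WT kidney arrays. In liver Oplah was at 0.37 ± 0.11 (adjusted p = 0.156). Of 6 fits that leave out 1 liver array, only that without WT liver 3 gave a call (0.43, adjusted p = 0.0191). The lowest adjusted p of the others was 0.267. Without that library all WT liver arrays are on slide 1 and all Glo1+/- liver arrays on slide 2. Genotype and slide cannot be told apart in that fit. The list's medians were 0.05 in adipose tissue, 0.02 in liver, 0.00 in kidney and 0.02 in aorta.

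Chaperones and folding enzymes of the endoplasmic reticulum, are targets of the other branches of the unfolded protein response. In Glo1+/- kidney 3 of 18 were called, all lower, beside 0.175% of all probes called lower there, and 12 were lower without overlap, beside 7.96%. Pdia3, a disulfide isomerase, was 13.34, 13.36 and 13.32 in WT and 12.82, 12.86 and 12.90 in Glo1+/- (-0.48 ± 0.07, adjusted p = 0.0116). Calr, the chaperone calreticulin, fell by 0.54 ± 0.10 (adjusted p = 0.0430), and Sec61b, a subunit of the translocon, fell by 0.51 ± 0.09 (adjusted p = 0.0403). The kidney median of the list was -0.27, beside -0.12 in liver, -0.02 in adipose tissue and 0.05 in aorta. The 4 macrophage markers measured averaged 8.72 to 8.84 in WT and 8.58 to 8.69 in Glo1+/- kidney, and 6 smooth muscle markers averaged 9.71 to 10.02 in WT and 9.47 to 9.75 in Glo1+/-. Single WT kidney libraries also carried more of other tissues, with hepatocyte markers at 9.78 in the first, brown fat markers at 9.64 in the second and white fat markers at 9.11 in the third. Their part in these differences was not tested.

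The kidney calls depended on single arrays and on slide. With slide as a block, which leaves Glo1+/- kidney 1 as the only Glo1+/- array on the slide of the WT arrays, Pdia3 was at -0.52 (adjusted p = 0.0848), Calr at -0.52 (adjusted p = 0.369) and Sec61b at -0.57 (adjusted p = 0.226). Pdia3 was lost without WT kidney 2 (-0.47, adjusted p = 0.0555). Calr and Sec61b were each kept in 1 of 6 fits that leave out 1 array, that without WT kidney 3. With the spread of all 24 arrays none of the 3 passed (lowest adjusted p = 0.252). With the prior variance held constant Calr (adjusted p = 0.117) and Sec61b (adjusted p = 0.0743) were lost, Calr also with only probes above the tissue median (adjusted p = 0.0562) and Sec61b with the replicate block (adjusted p = 0.0559).

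**Figure D4:**
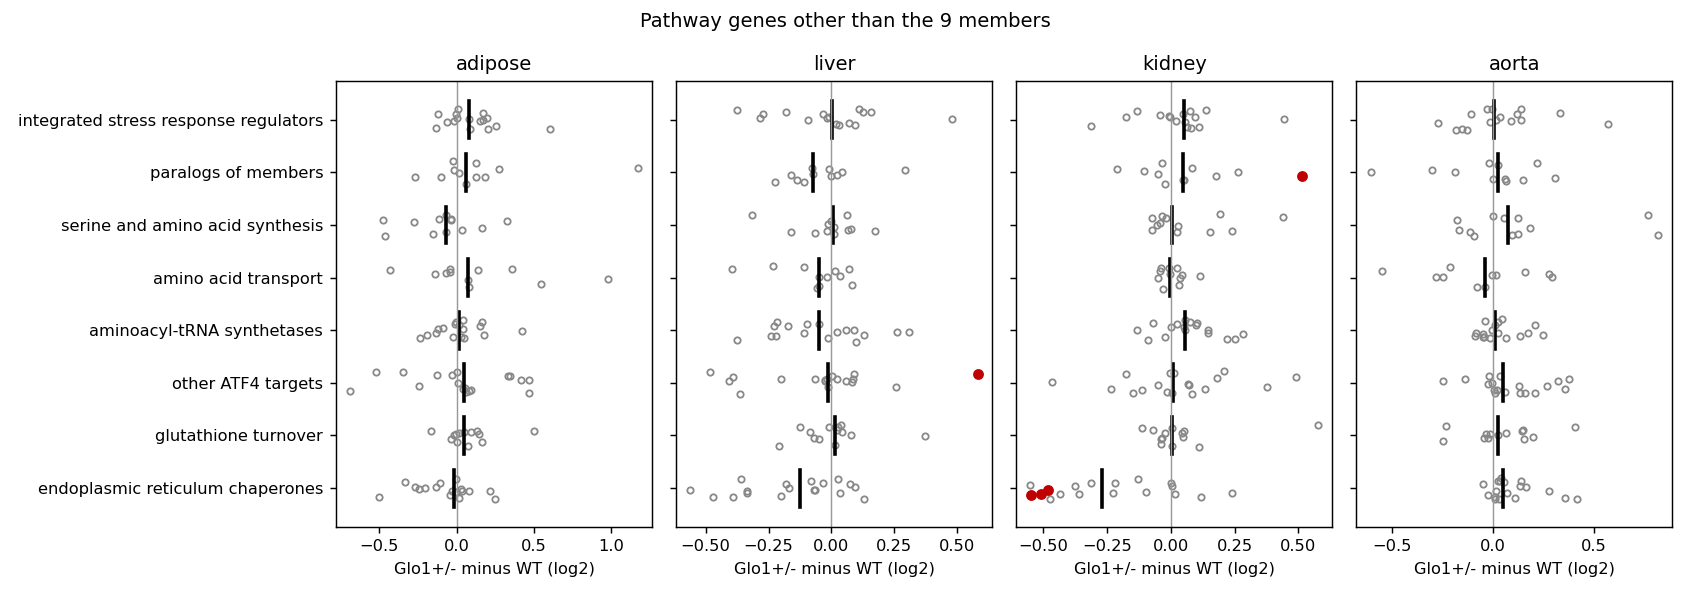
Genotype difference (horizontal axis, Glo1+/- minus WT in log2, a separate scale for each tissue) of the genes of 8 pathway lists, 1 point a gene by its brightest probe; black bars are list medians and red points genes with an adjusted p under 0.05. The 5 red points are Fgf21 in liver and Cebpb, Pdia3, Sec61b and Calr in kidney, and the kidney chaperones centre on -0.27.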

How the data were processed

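Total RNA of 24 samples was read on Illumina bead arrays. The deposited values are log2 values made by the authors with lumi 2.32.0, per the submitters' processing notes. The sources used here do not name the background correction, transformation or normalization, so differences near the floor may be understated. Of 25697 probes, 23978 have 1 gene, 0 several and 1719 none in the platform annotation. Gene IDs of 23962 were found in the RefSeq table of GRCm38.p6, which changed 0 symbols. Of 154 symbols in the lists (older and newer names both counted) 121 are on the array. Detection p-values were not used. The 3 arrays per group limit the precision.

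Each tissue was fitted with limma 3.58.1 in R 4.3.3 (lmFit, eBayes with trend, 2-sided, Benjamini-Hochberg over all probes). A fit of 8 group means gave the average difference and the F test between tissues, and errors after ± are limma's standard errors for differences and SD for means. Scripts were tested on simulated data. The members, the gene lists and the tests were chosen with earlier results of these data known. The text names all 9 members, Glo1, the 5 genes most like Chac1 by each measure, and from each pathway list the called genes or, where none was called, up to 3 with the lowest p, of which those printed were picked after their values were seen. Marker lists of 10 cell types describe the libraries, by the mean of the markers on the array. Chac1 has no p for its genotype difference in the tissues it was picked on, for the average or for its tissue levels. The labels do not say that samples of a group came from separate mice, so p-values measure the spread between these samples. Same-numbered WT and Glo1+/- samples had correlations of 0.66, 0.16 and 0.33 across probes in adipose tissue, where unlike numbers had -0.56 to 0.29. In liver, kidney and aorta same numbers had -0.11 to 0.21. The main fits took no pairs in any tissue, adipose tissue included. Fits with the replicate number as a block are given beside them, and whether the numbers mark pairs is not known.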

Additional observations from a re-analysis of the deposited data

Results flagged for a closer look

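The genotype difference of Chac1 in adipose tissue exceeded that in kidney by 1.68 (1.56 against -0.12): every Glo1+/- adipose value was above every WT value and every Glo1+/- kidney value below, and since Chac1 was picked for its rise in adipose tissue, the difference was not tested. The same held for aorta against kidney, where the differences were 0.85 and -0.12 and lay 0.97 apart, again not tested. Chac1 in kidney, at 8.39 to 8.60, lay close to the floor, where differences may be understated. Groups of 3 samples are too small for a search for single outlying samples.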

How the results depend on the processing

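Alternatives were quantile normalization, a filter on dim probes, a constant prior variance, 1 fit of all 24 arrays, the replicate number as a block, the second probe of a gene, slide, and leaving out libraries. Slide as a block, the tissue pairs that share a slide, and dropping adipose tissue, liver or kidney for the average were added after seeing the data. The count of called members stayed at 0 in kidney and for the difference between tissues under all of them. It became 1 in adipose tissue with 1 fit of all 24 arrays (Ddit4). In aorta it became 1 without both libraries numbered 3 (Ddit4), with fewer arrays in each genotype. In liver slide as a block or only slide 2 rests on 1 WT array, and Atf4 was then at 0.45. For the average the count became 2 without the aorta 3 libraries and Glo1+/- adipose 3, and 0 with slide as a block or without adipose tissue, liver or kidney. The share of all probes called can change with the fit and is not given for each. These counts are therefore no result about the members. With 1 array left out the count ran from 0 to 1 in adipose tissue and 0 to 2 for the average. The Chac1 average was 0.44 without adipose tissue and 1.00 without kidney. The replicate block changed no call of a member: in adipose tissue Asns had 0.54 ± 0.09 (adjusted p = 0.119) and Ddit4 0.81 ± 0.17 (adjusted p = 0.160), with 49 probes called in place of 1. Signs turned on slide 2 or with slide as a block in liver for Atf4 (0.45), Trib3 (0.085), Asns (0.046) and Psat1 (-0.038). They turned without both libraries numbered 1 for Atf4 in adipose tissue (-0.056) and without both libraries numbered 3 for Psat1 in aorta (-0.056). On the second probe they turned for Ddit3 in kidney (-0.062) and aorta (-0.025) and Sesn2 in aorta (-0.014). For the average they turned for Ddit3 without aorta (-0.029) and Trib3 with slide as a block (0.010). The cause was not tested. With 1 array left out, small differences crossed 0: Asns -0.15 to 0.10 in kidney and -0.19 to 0.10 in liver; Atf4 -0.093 to 0.19 in adipose tissue, -0.046 to 0.15 in aorta and -0.26 to 0.12 in liver; Ddit3 -0.20 to 0.086 in adipose tissue, -0.030 to 0.064 in kidney and -0.0060 to 0.065 on average. Psat1 ran from -0.33 to 1.59 in aorta, -0.027 to 0.032 in liver and -0.039 to 0.44 on average. Sesn2 ran from -0.051 to 0.048 in liver, and Trib3 from -0.012 to 0.042 in aorta, -0.014 to 0.0090 in kidney and -0.17 to 0.034 in liver. Between tissues the sign turned for Asns in WT adipose tissue minus aorta (-0.090 without the adipose and aorta libraries numbered 3, -0.036 to 0.14 with 1 array left out), Atf4 in WT liver minus aorta (-0.35 to 0.028), Ddit3 in WT adipose tissue minus aorta (-0.15 to 0.077), and in Glo1+/- for Atf3 (-0.21 to 0.0062) and Trib3 (-0.043 to 0.011) in adipose tissue minus aorta and Psat1 in kidney minus aorta (-0.37 to 1.55). Counts of tissue contrasts past the threshold with 1 array left out were 30 to 35 in WT and 28 to 44 in Glo1+/-. These have Chac1 counted in, so they cannot be set against the counts without it. Trib3, Atf3 in liver and kidney, and Psat1 in liver lie at the floor, where signal over background limits any difference.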
